A study of Homo sapiens with 2 samples.

Results

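The 10 genes described here are typical of epithelial cells. They encode membrane-anchored proteases (ST14, PRSS8), their inhibitors (SPINT1, SPINT2) and proteins of vesicle trafficking (RAB25, MAL2, AP1M2). The others encode a lipid synthase (CDS1), a signalling adaptor (SH2D3A) and a microtubule-associated protein (MAP7). They were chosen by name, out of 19970 protein-coding genes in the annotation. The paper on these cells had already named CDS1, SH2D3A and MAP7 among pro-epithelial genes that the ZEB1 network controls. For each gene, the ATAC-seq peaks in the gene body and within 20 kb of any of its annotated transcript starts were compared between 2 SUM159 libraries. SUM159 is an established line of triple negative breast cancer of the claudin-low subtype, with mesenchymal traits. ATAC-seq marks open chromatin by the sites at which the transposase Tn5 inserts sequencing adapters. Both populations were transduced with the lentiviral vector pLV-KRAB, which drives dCas9, a Cas9 that cannot cut DNA, fused to the KRAB repressor domain from the human ubiquitin C promoter, and were selected with puromycin. The No gRNA library came from cells that carried this vector without a targeting guide, and the All gRNA library came from cells that carried it with 4 guides against the promoter of ZEB1. With 1 library a group the design allows no test and no p-value, and each difference below is between those libraries.

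Matriptase (ST14) and prostasin (PRSS8) are serine proteases of the epithelial surface that can activate each other and act on the barrier and on sodium channels, and HAI-1 (SPINT1) and HAI-2 (SPINT2) are Kunitz-type inhibitors that hold them in check. RAB25, MAL2 and AP1M2 serve the sorting of membrane proteins in polarized epithelia. ZEB1 is a zinc finger repressor that binds E-boxes of the sequence CAGGTG in the promoters of many epithelial genes, and mesenchymal carcinoma cells commonly express little of these genes.

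The windows of the 10 genes held 43 No gRNA peaks and 49 All gRNA peaks. Of these, 37 No gRNA peaks and 38 All gRNA peaks overlapped a peak of the other list, and 36 formed pairs of 1 peak with 1 peak. The height of a peak was taken as its summit pileup, the number of extended reads stacked at its highest point, and a ratio is the All gRNA pileup over the No gRNA pileup after division by the relative depth of 0.743. The 95% interval of a ratio covers counting error alone, and because both ends of most fragments were counted it is too narrow. A pair was called past the fold where its ratio lay above 2 with an interval above 1, or below 0.5 with an interval below 1. By this rule 4 of the 36 pairs were higher in All gRNA, against 2.44% of the 48041 pairs of the whole lists, and 2 were lower, against 3.27%. The higher pairs were the start-site peaks of CDS1, SH2D3A and SPINT2 and an intronic peak of ST14, and both lower pairs lay at the starts of neighbouring genes.

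Among all 48041 pairs the median ratio was 0.928 and 58.1% were lower in All gRNA, so a pair of equal height stood slightly above the middle of the lists. The median ratio declined from 1.08 in the weakest of 5 classes of peaks to 0.848 in the strongest. The lists held 67868 No gRNA peaks and 68238 All gRNA peaks on chromosomes 1 to 22 and X, with a median pileup of 19 and 14 reads. At ZEB1, the targeted gene, 2 No gRNA peaks and 0 All gRNA peaks lay within 1 kb of the main start. Within 1 kb of any of its annotated starts there were 3 and 1, and its 1 shared pair had a ratio of 1.51. The mesenchymal label of the cells was matched by peaks at the main start of 6 of 6 mesenchymal marker genes in each library (VIM, CDH2, FN1, TWIST1, ZEB2, SNAI2), whereas 1 of 7 epithelial marker genes (KRT18) had one. At any annotated start, 3 of the 7 (EPCAM, KRT8 and KRT18) had a summit within 1 kb, and within 4 kb of a start 4 had peaks in both libraries, CDH1 in No gRNA alone, and GRHL2 and ESRP1 in neither. Of the 9 epithelial marker pairs 0 were past the fold upward and 1 downward. That pair, in an intron of KRT8, had 66 reads in No gRNA and 16 reads in All gRNA, a ratio of 0.326 (0.176 to 0.57). Of the 11 mesenchymal marker pairs 0 were past the fold.

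**Figure D1:**
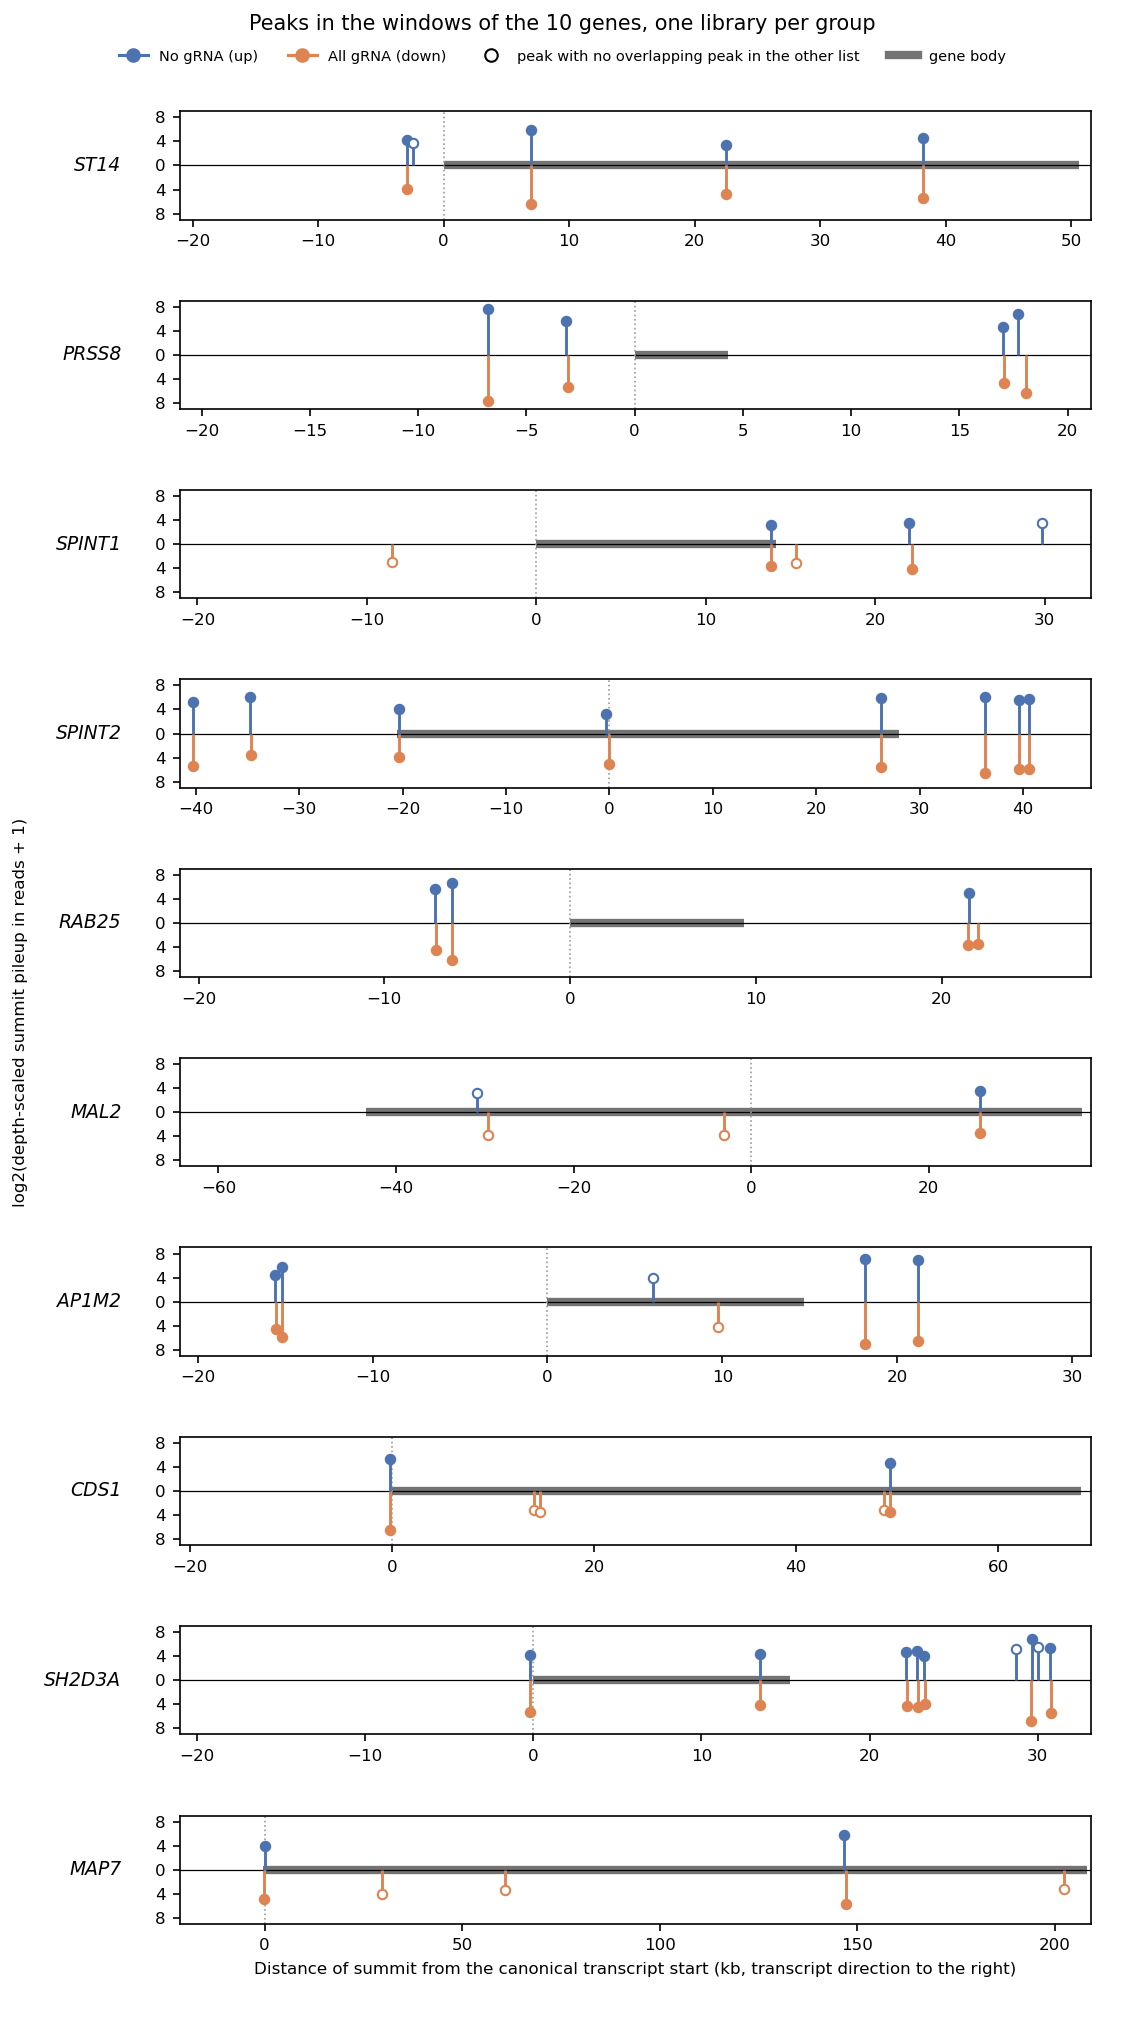
Summits of the peaks in the window of each gene, by distance from the canonical transcript start (kb, x axis), with log2 of the depth-scaled pileup plus 1 upward for No gRNA and downward for All gRNA (y axis, 1 library each). Open circles are the 6 No gRNA and 11 All gRNA peaks with no overlapping peak in the other list, and the gray bar is the gene body; CDS1, SH2D3A, MAP7 and SPINT2 have a peak at the canonical start, and the other 6 genes do not.

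Of the 10 genes, 4 had a summit within 1 kb of an annotated start in the No gRNA library (CDS1, SH2D3A, MAP7 and SPINT2) and the same 4 and AP1M2 had one in the All gRNA library. Across all protein-coding genes 67.5% had such a summit in No gRNA and 66.7% in All gRNA. ST14, PRSS8, SPINT1, RAB25 and MAL2 had none in either library. The 6 pairs at a start of a listed gene had ratios from 0.841 to 3.87 with a median of 2.00 (log2 1.00), and 3 of them were past the fold upward. At the starts of protein-coding genes in general (13190 pairs) the median ratio was 0.870 (log2 -0.20), 0.849% of pairs were past the fold upward and 2.76% downward. Of the 6 pairs, 4 had a ratio above 1, against 29.7% of pairs at protein-coding starts, and 4 were wider in All gRNA, against 32% of those pairs. The 6 pairs belong to 4 genes, and 3 of them to SPINT2 alone. The other 3 are of CDS1, SH2D3A and MAP7, which the paper had already named, so their contrast with all starts is not independent of its results. Pairs at protein-coding starts were taller, with a median No gRNA pileup of 52 reads and a lower quartile of 27, where 4 of the 6 had 8 to 17 reads, and weaker peaks had higher ratios in the lists as a whole.

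**Figure D2:**
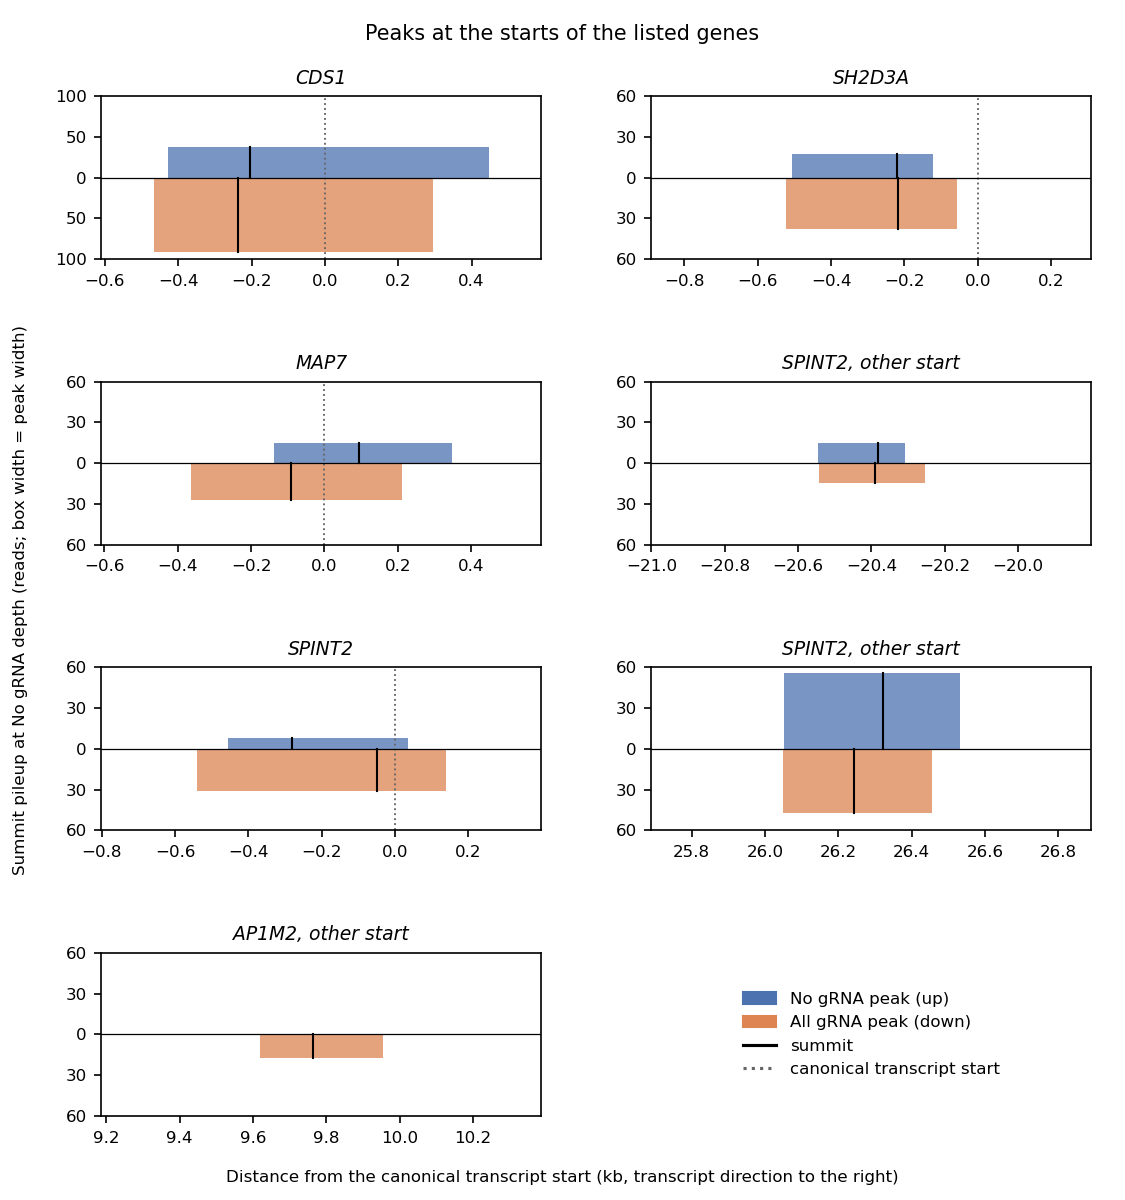
Peaks at the annotated starts of the listed genes, with the extent of each peak relative to the canonical transcript start (kb, x axis) and its summit pileup at No gRNA depth (reads, y axis, No gRNA upward and All gRNA downward, 1 library each). The All gRNA boxes are taller at the canonical starts of CDS1, SH2D3A, MAP7 and SPINT2, close in height at the upstream start of SPINT2, shorter at its downstream start, and the AP1M2 box has no No gRNA counterpart.

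SPINT2, which encodes the membrane-bound inhibitor HAI-2, showed the largest ratio of the 36 pairs. The peak at its canonical start (chr19:38264573, plus strand, hg38) had a pileup of 8 reads in No gRNA and 23 reads in All gRNA, which is 31.0 reads at No gRNA depth, and a ratio of 3.87 (1.67 to 10.0). The All gRNA peak was also wider, 680 bp against 492 bp, and its summit lay 50 bp upstream of the start where the No gRNA summit lay 280 bp upstream. By the deposited folds, each (pileup + 1) over (local background + 1), the ratio was 2.13. Local backgrounds were 0.760 reads in No gRNA and 1.2 in All gRNA, so the added 1, which is not scaled by depth, weighs on this ratio. An interval from halved pileups, which allows for 2 ends per fragment, ran from 1.16 to 16.6. The No gRNA peak was weak (−log10 q of 4.71) and the summits lay 230 bp apart, so the pair was not counted where −log10 q of at least 5 was required in both lists or where summits had to lie within 150 bp.

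At the other annotated starts of SPINT2 with a peak, both ratios lay below 1. At the upstream start the pileups were 15 reads in No gRNA and 11 reads in All gRNA, a ratio of 0.987 (0.410 to 2.30). At a start within the gene the peak was tall in both libraries, with 56 reads and 35 reads, a ratio of 0.841 (0.535 to 1.31). Both intervals included 1. The peak at the canonical start held 4 copies of CAGGTG over its whole extent in each library, that at the upstream start held 1, and that within the gene held 2 in No gRNA and 1 in All gRNA. The order of heights among the 3 starts of SPINT2 differed: the canonical start was the lowest in No gRNA and stood above the upstream start in All gRNA.

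The window of SPINT2 also held the pair with the lowest ratio, at a start of the neighbouring gene DPF1, a subunit of neuronal BAF chromatin remodelling complexes. This peak had 63 reads in No gRNA and 8 reads in All gRNA, a ratio of 0.171 (0.0707 to 0.358), and narrowed from 387 bp to 225 bp. The interval from halved pileups was 0.0439 to 0.483, and by the deposited folds, over local backgrounds of 2.20 and 0.660 reads, the ratio was 0.271. Another peak of DPF1, with 36 reads and 30 reads, had a ratio of 1.12 (0.667 to 1.87), so 1 of the 2 DPF1 peaks was lower past the fold. The 3 pairs downstream of SPINT2 had ratios of 1.16 to 1.37 with intervals that included 1. The 201 bases around the No gRNA summit of the DPF1 peak, between annotated exons, are shown on the plus strand because they lie under the pair with the lowest ratio, with the 1 GC box (GGGCGG) in capitals. These bases hold no CAGGTG, but the peak had one beyond them, within 50 bp of its All gRNA summit.
DPF1 start, plus strand, chr19:38229747-38229947: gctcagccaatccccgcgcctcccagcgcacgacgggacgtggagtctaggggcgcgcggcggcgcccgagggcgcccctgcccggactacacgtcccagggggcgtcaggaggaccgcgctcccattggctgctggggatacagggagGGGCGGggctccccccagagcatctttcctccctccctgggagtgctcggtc

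CDS1 encodes a CDP-diacylglycerol synthase of the endoplasmic reticulum that feeds phosphatidylinositol synthesis. Its start peak (start at chr4:84583127, plus strand) was the tallest of the peaks at listed starts in All gRNA: 38 reads in No gRNA and 68 reads in All gRNA (91.5 at No gRNA depth), a ratio of 2.41 (1.60 to 3.68). Halved pileups gave an interval of 1.34 to 4.47, and scaling by strength class gave 2.84 (1.88 to 4.34). The local background was higher in All gRNA as well (2.40 and 3.48 reads), and by the deposited folds the ratio was 1.34, outside the interval. The peak was taller yet narrower, 762 bp against 875 bp, and its summit moved by 35 bp. The 201 bases around the All gRNA summit are shown because they lie under the tallest of these start peaks. They lie between genes on the plus strand, with a GC content of 79.1%, and hold 4 GC boxes (GGGCGG, in capitals, the last 2 overlapping) and no CAGGTG.
CDS1 start, plus strand, chr4:84582789-84582989: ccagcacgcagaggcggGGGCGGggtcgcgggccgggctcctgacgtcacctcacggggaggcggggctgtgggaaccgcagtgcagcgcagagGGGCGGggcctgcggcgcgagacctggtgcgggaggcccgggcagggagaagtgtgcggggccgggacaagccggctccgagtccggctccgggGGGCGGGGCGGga

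Over its whole extent the CDS1 peak held 2 copies of CAGGTG in each library, 1 just before the first base printed above and 1 nearer the start. The RefSeq promoter of CDS1 held CAGGTG once on the other strand, read as CACCTG on the plus strand, with its first base 27 bp upstream of the start and inside the peak of both libraries.
CDS1 E-box, plus strand, chr4:84583088-84583117: cgtggagacgcgCACCTGgcaaccggaggc

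Inside the CDS1 gene the pattern differed from the start. The intronic peak 49255 bp downstream of the start had 24 reads in No gRNA and 8 reads in All gRNA, a ratio of 0.449 (0.174 to 1.03), whose interval included 1. The gene also held 3 peaks found in the All gRNA list alone, 2 in introns and 1 in an exon, with 6, 8 and 6 reads. All 3 were low, and the exonic one lay within 1 kb of the intronic pair.

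SH2D3A encodes an adaptor with an SH2 domain that links receptor signalling to CAS family proteins. Its start peak (start at chr19:6767435, minus strand) had 17 reads in No gRNA and 28 reads in All gRNA (37.7 at No gRNA depth), a ratio of 2.22 (1.17 to 4.32), and widened from 384 bp to 468 bp. The summits of both libraries lay 2 bp apart, about 220 bp upstream of the start. From halved pileups the interval was 0.881 to 5.94 and included 1, and by the deposited folds, over local backgrounds of 0.9 and 1.2 reads, the ratio was 1.39. The sequence around the summit is shown in the direction of SH2D3A, between genes, as that of a start peak past the fold without CAGGTG. It held 3 GC boxes (in capitals). CAGGTG was absent from the whole peak of both libraries, and the RefSeq promoter of SH2D3A held none either.
SH2D3A start, minus strand, chr19:6767553-6767753: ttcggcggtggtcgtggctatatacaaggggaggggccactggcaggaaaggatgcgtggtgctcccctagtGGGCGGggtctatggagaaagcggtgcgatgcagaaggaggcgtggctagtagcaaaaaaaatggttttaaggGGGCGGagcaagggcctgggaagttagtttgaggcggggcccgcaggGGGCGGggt

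The intronic peak of SH2D3A, with 20 reads and 12 reads, had a ratio of 0.807 (0.360 to 1.73). At the far end of the window, at the starts of GPR108 and TRIP10, the No gRNA list held 2 peaks without an All gRNA partner, with 43 reads and 35 reads over backgrounds of 10.2 and 10.1. They flanked a peak that both libraries shared, with 119 reads and 82 reads and a ratio of 0.927 (0.691 to 1.24). The other 4 pairs of this region had ratios of 0.729 to 1.08, all with intervals that included 1. Covered length in the SH2D3A window was 2974 bp in No gRNA and 2391 bp in All gRNA, although the start peak itself was wider in All gRNA.

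MAP7 encodes a microtubule-associated protein that recruits kinesin-1 in epithelial cells. Its start peak (canonical start at chr6:136550422, minus strand) had 15 reads in No gRNA and 20 reads in All gRNA, a ratio of 1.79 (0.873 to 3.77), whose interval included 1. The peak widened from 486 bp to 577 bp, and its summit moved by 184 bp, from 94 bp downstream to 90 bp upstream of the canonical start, both within MAP7 as annotated. Over its whole extent the peak held 2 copies of CAGGTG in No gRNA and 3 in All gRNA. Of these, the RefSeq promoter of MAP7 held 2, 81 bp and 170 bp upstream of the start. The nearer site lay in the peak of both libraries, and the farther site lay in the All gRNA peak but not in the No gRNA peak. Both sites are shown in the direction of MAP7 with 12 bases on either side, since the farther lies among the bases that the peak gained upstream, and both overlap exons of MAP7 transcripts.
MAP7 nearer E-box, minus strand, chr6:136550486-136550515: ccggactgcgctCACCTGtctgggccgctg
MAP7 farther E-box, minus strand, chr6:136550575-136550604: gctgccacgccgCACCTGcccgcgaggggg

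MAP7 also held 3 peaks in the All gRNA list alone, all intronic, with 6, 7 and 12 reads. The tallest of them lay 29763 bp inside the gene and was 421 bp wide. The broad intronic peak shared by both libraries, with 52 reads and 38 reads, had a ratio of 0.983 (0.630 to 1.52), although its summit moved by 496 bp within a peak of similar width. MAP7 had the greatest gain in covered length of the 10 genes, from 1361 bp to 2329 bp.

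ST14, the gene of matriptase, had no peak within 1 kb of any of its 4 annotated starts in either library, and its peaks lay in its introns and upstream. The peak 22468 bp into the gene had 10 reads in No gRNA and 19 reads in All gRNA (25.6 at No gRNA depth), a ratio of 2.56 (1.13 to 6.16), and widened from 235 bp to 354 bp. On halved pileups its interval was 0.783 to 9.62 and included 1. By the deposited folds, over local backgrounds of 0.652 and 0.680 reads, its ratio was 1.79, within 2-fold. The 2 other intronic pairs also had ratios above 1: the peak 6937 bp into the gene had 56 reads and 62 reads, a ratio of 1.49 (1.02 to 2.18), and the peak 38185 bp into it had 24 reads and 30 reads, a ratio of 1.68 (0.951 to 3.01). All 3 intronic pairs of ST14 therefore had a ratio above 1, while 41.9% of all pairs did. Upstream of the gene, the shared peak with 17 reads and 11 reads had a ratio of 0.871 (0.369 to 1.97), and a peak beside it with 12 reads was in the No gRNA list alone. The sequence around the All gRNA summit of the peak past the fold, in an intron on the plus strand, is shown because it is the only distal peak past the fold. It holds no CAGGTG and 1 AP-1 site (TGAGTCA, in capitals), a motif found within 100 bp of 24.3% of all All gRNA summits and 23.5% of No gRNA summits.
ST14 intron, plus strand, chr11:130182168-130182368: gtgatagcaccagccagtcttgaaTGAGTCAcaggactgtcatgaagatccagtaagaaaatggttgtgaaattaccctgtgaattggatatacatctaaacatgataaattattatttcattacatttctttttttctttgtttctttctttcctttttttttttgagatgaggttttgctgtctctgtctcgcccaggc

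PRSS8, the gene of prostasin, held no peak of its own: the nearest of its 4 pairs lay 3158 bp upstream of its canonical start, with a ratio of 0.878 (0.535 to 1.42), and the other 3 were at the starts of KAT8 and PRSS36. None was past the fold. At KAT8, a histone acetyltransferase gene, the taller peak had 110 reads in No gRNA and 59 reads in All gRNA, a ratio of 0.722 (0.517 to 0.999), and the other had 25 reads and 19 reads, a ratio of 1.02 (0.532 to 1.93). The peak in PRSS36, a serine protease gene, was the tallest in the windows, with 202 reads and 155 reads and a ratio of 1.03 (0.832 to 1.28), the tightest interval of the 36 pairs.

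SPINT1, the gene of HAI-1, likewise had no peak at any of its 11 annotated starts. The pair in its last part had 8 reads in each library, a ratio of 1.35 (0.440 to 4.11), and the pair beyond its end had 11 reads and 13 reads, a ratio of 1.59 (0.657 to 3.92) with a width of 344 bp and 568 bp. The All gRNA list alone held a peak with 5 reads and a peak with 6 reads, and the No gRNA list alone held a peak with 11 reads at the start of RHOV. All these peaks were low, and both intervals included 1.

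RAB25, an epithelial relative of RAB11 that returns proteins to the cell surface, had no peak within its body or at its starts in either library. Its window held the second pair past the fold downward, upstream at the shared promoter of UBQLN4 and LAMTOR2. That peak had 50 reads in No gRNA and 17 reads in All gRNA, a ratio of 0.458 (0.247 to 0.807), and narrowed from 605 bp to 373 bp. Its interval on halved pileups was 0.183 to 1.03, which included 1, and by strength class the ratio was 0.521. The local background was lower in All gRNA (6.48 and 2.88 reads), and the deposited folds had a ratio of 0.680. The adjacent peak, in LAMTOR2, had 103 reads and 53 reads, a ratio of 0.692 (0.487 to 0.974). Downstream, at the starts of LMNA and MEX3A, 1 No gRNA peak of 32 reads and 700 bp overlapped 2 All gRNA peaks of 9 and 8 reads that were 207 bp and 218 bp wide. At all 3 sites the All gRNA pileup was the lower, and the covered length of the window was 1878 bp and 1286 bp.

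The promoter of RAB25 nevertheless held 2 E-boxes, 41 bp upstream and 37 bp downstream of its start (chr1:156061160, plus strand), neither under a called peak. They are shown on the plus strand with the E-box in capitals and 12 bases on either side.
RAB25 upstream E-box, plus strand, chr1:156061107-156061136: catctctccaccCACCTGggccccaggtct
RAB25 downstream E-box, plus strand, chr1:156061185-156061214: ttacagcaccccCACCTGccagagctgatc

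AP1M2 encodes the epithelial medium subunit of the AP-1 clathrin adaptor, which directs proteins to the basolateral membrane. It had no peak at its canonical start (chr19:10587312, minus strand) in either library, although the RefSeq promoter held 3 E-boxes, 15 bp, 27 bp and 57 bp upstream of the start. Inside the gene each library held 1 peak that the other lacked: the No gRNA peak had 15 reads and lay 6031 bp into the gene, and the All gRNA peak had 13 reads, lay 9764 bp into it and was within 1 kb of an internal annotated start. The other 4 pairs of the window lay at the starts of KRI1, CDKN2D and SLC44A2, with ratios of 0.780 to 1.14 and intervals that included 1. Of 6 consecutive runs of 30 bases around the summit of that All gRNA peak, 5 occur elsewhere in the genome, so reads there could be placed at other copies. The 3 promoter E-boxes are shown in the direction of AP1M2, in capitals.
AP1M2 nearest E-box, minus strand, chr19:10587310-10587339: cacctgggctctCACCTGggcgcaggcgct
AP1M2 middle E-box, minus strand, chr19:10587322-10587351: ttaagacgcacaCACCTGggctctcacctg
AP1M2 farthest E-box, minus strand, chr19:10587352-10587381: gacagcgctgctCACCTGgccgcctcccct

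An entry was found for 6 of the 10 genes among the RefSeq promoters (GRCh38.p14, 250 bases before and 50 after each start): CDS1, SH2D3A, MAP7, SPINT1, RAB25 and AP1M2. CAGGTG on either strand was present in 4 of these 6, against 20.6% of 27195 promoters. Of the 4, CDS1 and MAP7 had a peak at the canonical start, and RAB25 and AP1M2 had none there in either library. Within 100 bp of the summit, CAGGTG was held by 6 of 43 peaks in No gRNA (14%) and by 8 of 49 in All gRNA (16.3%), against 11.6% and 13.1% of all peaks in each list. CAGCTG, the related E-box, was found at 7 and 5 of them, 16.3% and 10.2%, against 12.4% and 12.0%. Of the 4 pairs past the fold upward, the SPINT2 start alone held CAGGTG within 100 bp of its summit, and of the 2 pairs past the fold downward the DPF1 peak held it there in All gRNA.

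MAL2, a proteolipid of apical transport, had no start peak in either library, and its few peaks were low and intronic. The shared peak had 11 reads in No gRNA and 7 reads in All gRNA, a ratio of 0.856 (0.281 to 2.42), and the widths were 460 bp and 205 bp. The No gRNA list alone held a peak of 8 reads and the All gRNA list alone held 2 peaks of 9 reads, 1 of them at -3099 bp from the canonical start. Covered length was 664 bp and 650 bp, the smallest difference of the 10 genes.

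**Figure D3:**
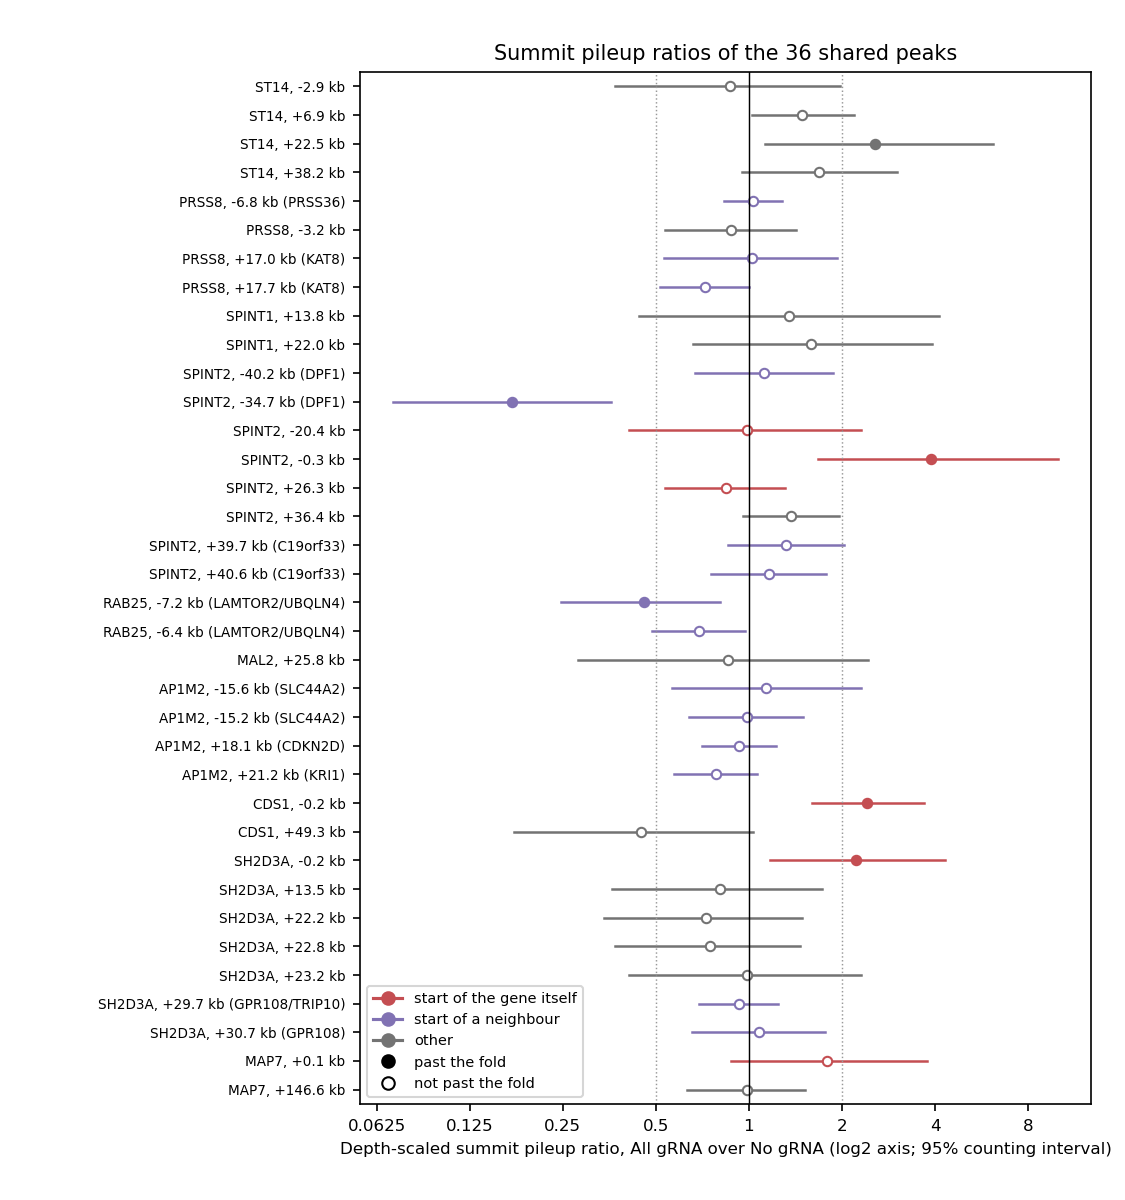
Depth-scaled summit pileup ratio of each of the 36 shared pairs (points, log2 x axis) with its 95% counting interval (lines), by gene and distance of the No gRNA summit from the canonical start, with the neighbour named where the peak lies at its start. Filled points are past the fold: SPINT2 (3.87), ST14 (2.56), CDS1 (2.41) and SH2D3A (2.22) upward, DPF1 (0.171) and LAMTOR2/UBQLN4 (0.458) downward.

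The 36 pairs divided by position. The 15 pairs at the starts of neighbouring genes had a median ratio of 0.985, with 0 past the fold upward and 2 downward, and the 15 pairs elsewhere had a median of 0.983, with 1 upward and 0 downward. Over all 36 pairs 17 ratios were above 1 and 19 below, the median was 0.987 (log2 -0.02), and 27 intervals included 1. Intervals lay above 1 for 5 pairs, against 3.42% of all pairs, and below 1 for 4, against 8.85%. In width, 16 pairs were wider in All gRNA, 19 narrower and 1 equal, and 38.2% of all pairs were wider.

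**Figure D4:**
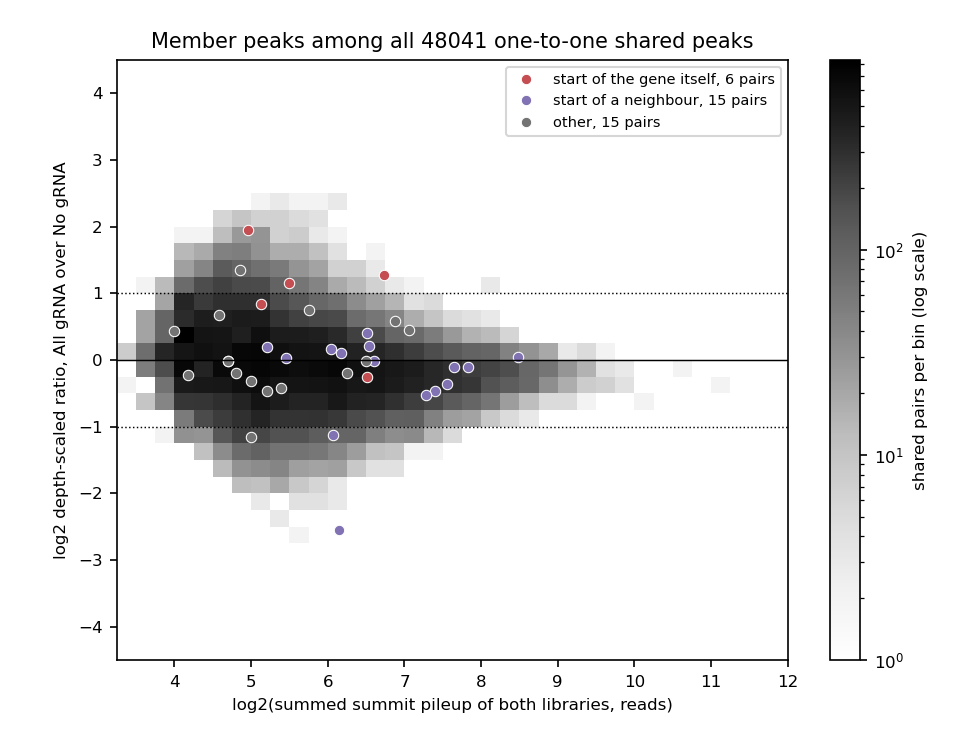
Log2 depth-scaled ratio (y axis) against log2 of the summed summit pileup of both libraries (x axis) for all 48041 one-to-one pairs (gray, number of pairs per bin on a log scale) and the 36 pairs of the listed genes (colored by position). The dotted lines mark 2-fold, the 3 highest pairs at the genes' own starts lie above the upper line, and the DPF1 pair at log2 -2.55 lies below the others.

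Peaks found in 1 list alone were 6 of 43 No gRNA peaks (14%, exact binomial interval 5.30% to 27.9%) and 11 of 49 All gRNA peaks (22.4%, 11.8% to 36.6%), against 24.7% and 23.8% of all peaks. Both intervals included the share of the whole list. They cover counting error alone and take each peak as independent, although several lay at the same gene, and are no test. The 11 All gRNA peaks were low, with 5 to 13 reads, and lay at CDS1 (3), MAP7 (3), SPINT1 (2), MAL2 (2) and AP1M2 (1), whereas the 6 No gRNA peaks had 8 to 43 reads. Of the 11 All gRNA peaks, 3 held CAGGTG within 100 bp of the summit, as did 3 of the 6 No gRNA peaks, against 16.4% and 11.7% of all peaks found in All gRNA or No gRNA alone.

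Covered length, the number of bases of a window under peaks, was longer in All gRNA at 5 genes and shorter at 5, while over all protein-coding genes it was longer at 29.8% and shorter at 60.3%. The gains were 968 bp at MAP7, 504 bp at CDS1, 420 bp at SPINT1, 268 bp at PRSS8 and 179 bp at ST14. With −log10 q of at least 5 they were 492 bp at MAP7, 84 bp at CDS1, -25 bp at SPINT1, and unchanged at PRSS8 and ST14. In the PRSS8 window the wider peaks were those at the starts of KAT8 and PRSS36, and the peak nearest PRSS8 was narrower in All gRNA. In windows of 4 kb around starts, without the gene body, the sign was opposite to that of the whole window at 6 of the 10 genes: -113 bp at CDS1 and -23 bp at PRSS8, and 106 bp at SH2D3A, 165 bp at SPINT2, 218 bp at MAL2 and 136 bp at AP1M2.

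Related genes were taken from 3 lists: 10 genes of surface proteases and their substrates, 18 of trafficking, and 9 of adaptors, microtubules and lipid synthesis. Within 4 kb of their starts, 31 of the 37 had peaks in both libraries, 0 in 1 library alone and 6 in neither, and of those 6 genes 5 were of the protease list (TMPRSS4, TMPRSS6, TMPRSS13, PRSS22 and F2RL1) and the other was MAP7D2. By a summit within 1 kb of a start, the count was 2 of 10 protease genes in each library, 15 (No gRNA) and 16 (All gRNA) of 18 trafficking genes, and 8 of 9 of the third list in each, beside the 67.5% and 66.7% of all protein-coding genes. At the main start, 20 of the 37 had a summit within 1 kb in No gRNA and 24 in All gRNA. RAB17, MYO5B, VAMP8 and SCNN1A had one there in All gRNA alone. At any annotated start the counts were 25 in No gRNA and 26 in All gRNA. Covered length around the main start in All gRNA was 247 bp at RAB17, 218 bp at MYO5B and 200 bp at VAMP8, where the shortest peak of the list was 200 bp. At SCNN1A it was 1058 bp in No gRNA and 1226 bp in All gRNA. The share at main starts over all protein-coding genes was not counted. Of the 60 pairs of the related genes 1 was past the fold upward and 1 downward. The higher one was at an alternative start of SYTL1, a RAB27 effector of secretion, with 11 reads in No gRNA and 35 reads in All gRNA, a ratio of 4.28 (2.13 to 9.35). The lower one was in an intron of SCNN1A, the alpha subunit of the epithelial sodium channel on which prostasin acts, with 54 reads and 18 reads, a ratio of 0.449 (0.248 to 0.777). Yet SCNN1A had 4 peaks in No gRNA and 5 in All gRNA, with a covered length of 1851 bp and 2442 bp.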

How the data were processed

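ATAC-seq libraries of SUM159 cells, 1 per group, were compared through the peak lists that the authors deposited. The authors trimmed reads with fastp, mapped them with Bowtie2 to hg38, removed mitochondrial, excluded-region and duplicate reads with SAMtools, and called peaks in each library with MACS2 without a control (versions are not given in the sources used here). The paper gives an extension of cut sites to 150 bp. The shortest peak was 200 bp in each list and backgrounds rose in steps of 0.02 reads. Whether these lists were made with the 150 bp setting was not tested. The deposited lists give a fold over local background (a ratio), a −log10 p, a −log10 q and a score, which was not used. The summit pileup was recovered as the whole number of reads that gives both the deposited fold, (pileup + 1) over (background + 1), and the −log10 p, which held for 100% of peaks within a relative tolerance of 1e-05. Relative depth was the ratio of the lowest backgrounds, 0.484 over 0.652 reads. Library totals were not used. Even multiples of the background step of 0.02 made up 76.3% and 79.3% of backgrounds, hence the count of both fragment ends. Ratio intervals are exact Clopper-Pearson intervals (95%) on the All gRNA share of the summed pileup.

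Peaks were shared where they overlapped by 1 bp or more. GENCODE release 44 gave starts and exons, on hg38. Sequences were read from hg38, and promoters are from RefSeq (GRCh38.p14). Some peak sequences are not reported here. The named peaks were those with a summit within 1000 bp of a start of a listed gene, those past the fold and those in 1 list (the 3 highest where a gene had more), and of the related genes those with a peak past the fold or promoter peaks in 1 library. Related genes with promoter peaks in neither library, and RAB17, MYO5B and VAMP8, were named as well. The members and lists were chosen with earlier results of these data known. The AP-1 and GC-box motifs and the halved pileup were chosen after seeing the data. The recovery and the intervals were tested on simulated data. Python 3.11.15, numpy 2.4.6, pandas 2.3.3, scipy 1.17.1 and matplotlib 3.10.9 were used.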

Additional observations from a re-analysis of the deposited data

How the results depend on the processing

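No paired analysis was possible because the design has 1 library a group. Depth limits every ratio of a low peak, and the intervals hold no error between cultures. The number of shared No gRNA peaks in the windows was 16 with 4 kb windows and 66 with 50 kb windows. Peaks in No gRNA alone numbered 11 when summits had to lie within 150 bp, 3 with gaps of up to 1000 bp, 2 at −log10 q of at least 10, 3 with 4 kb windows and 10 with 50 kb windows. Peaks in All gRNA alone numbered 17, 10, 1, 10 and 16 under the same settings, and 4 at −log10 q of at least 5. Pairs higher past the fold numbered 3 at −log10 q of at least 5, without the SPINT2 start. Pairs lower past the fold numbered 1 by strength class and 3 for pairs matched by summit, against 3 upward by that matching. With halved pileups 2 pairs were higher (CDS1 and the SPINT2 start) and 1 was lower (DPF1). Over all pairs, 355 were then higher and 575 lower, while median and strength-class scaling gave 983 and 981 lower, with 1581 and 1458 higher. CAGGTG was found at 3 No gRNA and 5 All gRNA peaks within 50 bp of the summit and at 15 and 14 within 150 bp. The difference in covered length changed sign within 4 kb of any start at CDS1 (-113 bp), SH2D3A (106 bp), SPINT2 (165 bp), PRSS8 (-23 bp), MAL2 (218 bp) and AP1M2 (136 bp). Around the canonical start it did so at CDS1 (-113 bp), SH2D3A (84 bp), SPINT2 (188 bp), PRSS8 (-23 bp) and MAL2 (218 bp), and at −log10 q of at least 5 at SPINT1 (-25 bp) and SPINT2 (358 bp). Windows, filters and matching set which peaks are counted, and the cause of the other shifts was not tested. Of the 27 alternatives that rescaled a named ratio 26 lay within its interval, the other being the CDS1 start by the deposited folds. Scaling by the median or strength class multiplies a ratio by a number near 1, so staying within these wide intervals shows little. By the deposited folds CDS1 (1.34), SH2D3A (1.39), ST14 (1.79) and the UBQLN4 and LAMTOR2 peak (0.680) lay within 2-fold. The SPINT2 start (2.13) and DPF1 (0.271) lay beyond it, in folds that include the 1 added to pileup and background. Halved pileups, which leave ratios as they are, ended the calls of SH2D3A, ST14 and the UBQLN4 and LAMTOR2 peak.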
